A study of Mus musculus with 6 samples.

Results

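Transcript levels of 10 pluripotency factors were examined in NE-4C. This mouse cell line is labelled as neural stem cells from brain, and the series' design text calls it p53-deficient. The genes are Pou5f1, Sox2, Nanog, Utf1, Sall4, Lin28a, Lin28b, Klf4, Dppa5a and Zfp42. They were chosen by symbol, with their levels in these libraries already known, so their levels are given as a description with no p-value. Of the 10 genes, 9 were listed in both deposited expression tables, which together hold 14667 genes, and Zfp42 was in neither.

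Poly(A) RNA-seq covered 6 libraries, 2 in each of 3 groups. All 3 groups carry a knockout of H3f3a, 1 of the genes for histone H3.3. H3.3WT cells stably express HA-tagged wild-type H3.3. Cbfa2t2_KO cells also stably express HA-tagged wild-type H3.3 and carry in addition a knockout of Cbfa2t2. The labels do not say whether both groups carry the same construct. H3.3K27M cells stably express HA-tagged H3.3 with the K27M substitution instead. All were grown in MEM with 10% fetal bovine serum. The sources used here do not say whether each line is a single clone or where in Cbfa2t2 it was cut.

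OCT4 (the protein of Pou5f1), SOX2 and NANOG bind DNA together at many enhancers of embryonic stem cells and hold one another's genes active. SOX2 is also a factor of neural stem cells, whereas OCT4 and NANOG are normally silenced once the embryo forms neural tissue. CBFA2T2 is a corepressor that is known to join OCT4 and the germline factor PRDM14 in pluripotent and germline cells. The K27M substitution in histone H3 is found in diffuse midline glioma and blocks methylation of lysine 27 by the Polycomb complex PRC2.

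The values are FPKM, fragments scaled by transcript length and by the library's total, so levels can be set side by side between genes, and differences between libraries depend in part on the scaling, as given below. Both tables list the same H3.3WT values, so the 2 comparisons with H3.3WT share their controls. Nothing in the labels says that a group's 2 libraries are from separate cultures. A p-value here then reflects just the variation among these samples, and that variation may be technical. Libraries of the same group correlated at r = 0.984 to 0.988 on log2(FPKM + 1) and libraries of different groups at 0.945 to 0.978. H3.3WT libraries correlated with those of the other groups at 0.9452 to 0.9565, and Cbfa2t2_KO with H3.3K27M at 0.9669 to 0.9780. The 2 lines were thus closer to each other than to H3.3WT, the control that they share. The tables hold no counts and the depth is unknown. Cbfa2t2 itself was at 1.38 and 1.35 FPKM in H3.3WT, 1.02 and 0.769 in the libraries labelled Cbfa2t2_KO, and 2.02 and 0.855 in H3.3K27M. This gene-level value does not settle the knockout: Cbfa2t2_KO differed from H3.3WT by -0.32 ± 0.16 (SE) on the log2(FPKM + 1) scale (limma, adjusted p = 0.153).

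The label of neural stem cells was set against 14 neural stem and progenitor markers. Of these, 11 were in the tables and 7 had a mean of at least 1 FPKM in each group. Sox1 and Fabp7, which mark early neural tissue and radial glia, were in neither table. Nes, the intermediate filament nestin, was at 37.0 ± 2.5 FPKM in H3.3WT, against 21.1 ± 4.1 in Cbfa2t2_KO and 15.6 ± 1.8 in H3.3K27M (mean ± SD, n = 2 libraries in each group here and throughout). Pax6, a regulator of neural progenitors, had means of 0.926, 0.283 and 0.349 FPKM. Vim, the intermediate filament vimentin, had means of 11.2 ± 1.3, 26.9 ± 0.53 and 38.2 ± 5.1 FPKM, and Prom1, a membrane protein of neural and other stem cells, 3.07 ± 0.32, 6.69 ± 1.3 and 7.07 ± 0.012, so both were higher in Cbfa2t2_KO and H3.3K27M (limma, adjusted p = 0.0015 and 0.0013 for Vim, 0.0097 and 0.0074 for Prom1). Nes was lower in both (limma, adjusted p = 0.0097 and 0.0030). Of 7 tested genes of the list 2 rose and 2 fell in Cbfa2t2_KO, and 2 rose and 3 fell in H3.3K27M. These shares, 57.1% and 71.4%, stand beside 34.6% and 26.2% of all tested genes. Hes1 also fell in Cbfa2t2_KO (13.2 to 5.71 FPKM, limma, adjusted p = 0.0050). Msi1 (17.1 to 10.2) and Notch1 (4.12 to 1.90) fell in H3.3K27M (limma, adjusted p = 0.0197 and 0.0391). The summed level of the list was 89.6 to 98.8, 79.7 to 91.3 and 90.4 to 91.8 FPKM in the 3 groups. The measured markers named here were picked out after their values were seen. Pou5f1 was at 919 FPKM or above in every library, so the libraries combined a high level of a pluripotency factor with gaps among defining neural markers.

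Markers of other cell types were also measured. Germ cell markers Ddx4, Dazl, Nanos3 and Prdm14 were in neither table, and 4 of 8 listed germ cell genes were present. Of 8 mesendoderm markers, 6 were in the tables. Their summed level ran from 15.2 to 16.6 FPKM in H3.3WT, against 4.24 to 4.84 in Cbfa2t2_KO and 11.4 to 14.7 in H3.3K27M. All 4 tested genes of the list fell in Cbfa2t2_KO, whereas 1 rose and 2 fell in H3.3K27M. There T rose 2.41-fold (limma, adjusted p = 0.0144), and Gsc and Gata4 fell 3.13-fold and 2.38-fold (limma, adjusted p = 0.0066 and 0.0090). Eomes had means of 3.10 FPKM in H3.3WT and 3.19 in H3.3K27M. Mixl1 and Gata6, not tested, had lower means in H3.3K27M than in H3.3WT. Of 7 trophectoderm markers 5 were present, with sums of 9.43 to 9.76, 17.8 to 17.9 and 12.9 to 13.5 FPKM, while Cdx2 and Hand1, which define that lineage, were in neither table. The rise of the sum came mostly from the keratins Krt8 (means 0.752, 8.48 and 4.66) and Krt18 (1.32, 3.98 and 2.50). Elf5 (0.750, 1.18 and 1.16) was also lowest in H3.3WT. Gata3 (3.18, 2.02 and 2.36) and Tfap2c (3.60, 2.22 and 2.55) went the other way and were highest in H3.3WT. Of 7 neuronal markers 4 were present, with Map2, Dcx and Neurod1 in neither table. Their sums were 77.0 to 78.7, 134 to 150.2 and 76.7 to 81.4 FPKM and came mostly from Tubb3, a neuronal tubulin (means 68.2, 131 and 70.0). Rbfox3 (1.74, 1.16 and 0.636) and Elavl3 (1.66, 1.12 and 0.805), RNA-binding proteins of neurons, did not follow the sum, and both fell in H3.3K27M (limma, adjusted p = 0.0153 and 0.0473). Astrocyte and oligodendrocyte markers (2 of 8 in the tables), mesenchymal markers (5 of 6) and leukocyte markers (1 of 5) summed to at most 11.7 FPKM in any library. H3f3a, knocked out and replaced by a tagged copy in all groups, was at 131 and 181 FPKM in H3.3WT, 82.1 and 66.3 in Cbfa2t2_KO and 77.3 and 66.8 in H3.3K27M. It was lower in both lines, with log2 differences of -1.05 ± 0.19 and -1.09 ± 0.20 (limma, adjusted p = 0.0050 and 0.0071), and reads of the tagged copy cannot be told apart from those of the gene in these values. The part of H3f3a and of these cell type differences in the levels below was not tested. In bulk RNA, fewer cells that express a gene and less RNA per cell cannot be told apart.

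**Figure D1:**
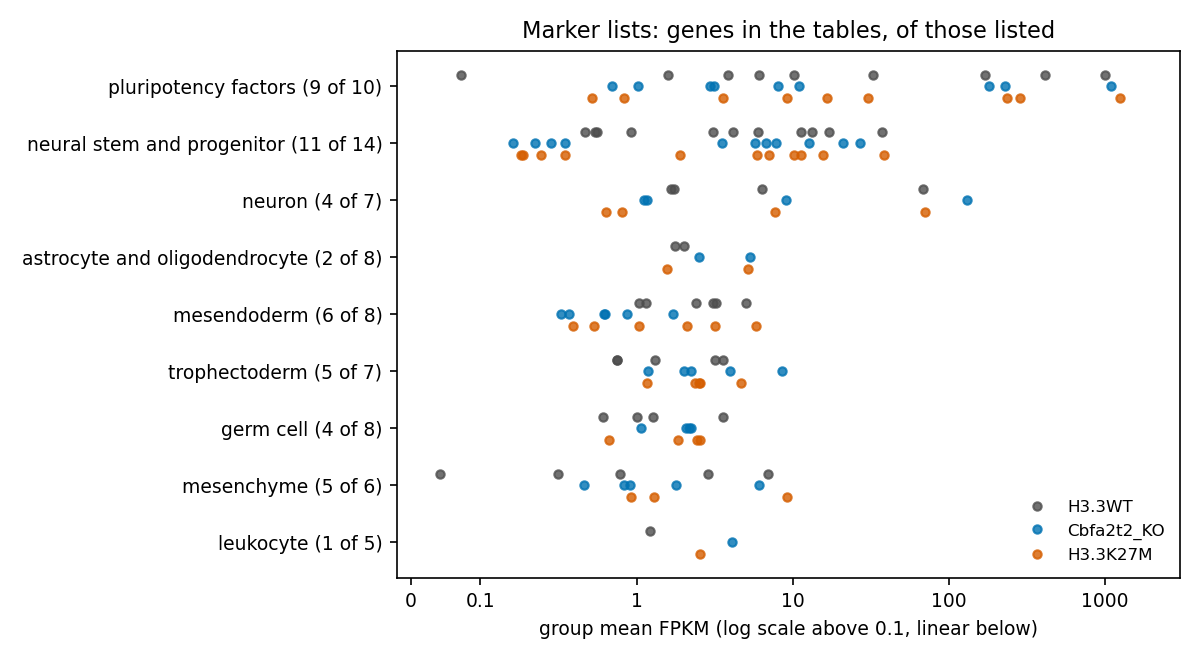
Mean FPKM of each gene of the pluripotency factors and of each marker list, 1 point per gene and group, on an axis that is logarithmic above 0.1 FPKM and linear below. Pluripotency factors span the widest range, up to 994 (H3.3WT), 1092 (Cbfa2t2_KO) and 1245 FPKM (H3.3K27M). Mesendoderm genes other than Gata6 lie lowest in Cbfa2t2_KO, where the sum of that list was 4.24 to 4.84 FPKM.

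OCT4 recognises an octamer whose core is ATGCAAA, and SOX2 a shorter motif, CATTGT. Windows of 250 bases before the RefSeq start of each gene (build GRCm38.p6) were searched on both strands for these 2 motifs, for the full octamer ATGCAAAT, and for a composite of CATTGT, 1 base of any kind and ATGCAAA in a row. A match to the composite or to the full octamer also holds the shorter motifs within it. RefSeq windows were matched for 8 of the 10 genes, and Sall4 and Dppa5a had none in the table used. The windows of Nanog, Sox2 and Utf1 are shown because these 3 genes were lower in Cbfa2t2_KO than in H3.3WT. Capitals mark motif matches, and the window of Utf1 holds none. They lie at chr6:122707239-122707488 (+ strand) for Nanog, chr3:34649745-34649994 (+) for Sox2 and chr7:139943606-139943855 (+) for Utf1.
Nanog: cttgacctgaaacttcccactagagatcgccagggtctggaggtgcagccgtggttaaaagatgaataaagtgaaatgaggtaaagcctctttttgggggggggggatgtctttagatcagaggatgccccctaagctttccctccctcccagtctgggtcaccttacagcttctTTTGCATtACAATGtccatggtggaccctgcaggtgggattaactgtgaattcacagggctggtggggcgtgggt
Sox2: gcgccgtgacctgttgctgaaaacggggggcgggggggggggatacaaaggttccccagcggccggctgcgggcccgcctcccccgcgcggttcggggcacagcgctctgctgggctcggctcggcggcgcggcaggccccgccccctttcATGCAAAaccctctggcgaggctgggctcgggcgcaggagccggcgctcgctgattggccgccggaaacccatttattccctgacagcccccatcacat
Utf1: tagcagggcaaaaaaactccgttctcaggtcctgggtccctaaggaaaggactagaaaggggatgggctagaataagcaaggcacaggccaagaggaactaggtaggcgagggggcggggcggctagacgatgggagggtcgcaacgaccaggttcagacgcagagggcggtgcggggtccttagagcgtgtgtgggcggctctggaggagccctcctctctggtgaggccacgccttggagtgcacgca

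The Nanog window holds the composite, with its octamer core beginning 75 bases before the start, and of 32851 RefSeq windows only 2 hold it (0.00609%), both of them windows of Nanog. Only these exact letters were searched, so that count depends on their choice. Whether the 2 windows hold the same site was not examined. The Sox2 window holds an octamer core 99 bases before the start, as do 4.12% of all windows. The full octamer is in 1.6% of all windows and among the 8 genes only in that of Zfp42, 186 bases before the start. The SOX motif is in 10.7% of all windows and, outside Nanog, in that of Lin28a, 96 bases before the start. The windows of Pou5f1, Utf1, Lin28b and Klf4 have no match to these letters. A match is a description of sequence and not a measured site.

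LIN28A and LIN28B bind precursors of the let-7 microRNAs, often at a GGAG in the loop, and block their maturation, and let-7 in turn represses LIN28A, LIN28B and other targets. All 8 mature let-7 5p sequences in RefSeq share the seed GAGGUAG, as in let-7a and let-7g below, where capitals mark the seed. The Mirlet7g precursor (chr9:106178840-106178927, + strand) is shown with its loop GGAG in capitals. Such a GGAG lies between the arms in 9 of 11 let-7 precursors. MicroRNA levels were not analysed here.
mmu-let-7a-5p: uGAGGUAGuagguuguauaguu
mmu-let-7g-5p: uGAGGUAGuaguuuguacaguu
Mirlet7g: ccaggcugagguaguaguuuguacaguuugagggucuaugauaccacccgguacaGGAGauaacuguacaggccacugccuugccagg

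Pou5f1 (ENSMUSG00000024406, chr17:35506018-35510772, 5 exons) was the highest of the 9 tabled genes in every library. It was at 1069 and 919 FPKM in H3.3WT, 1014 and 1169 in Cbfa2t2_KO and 1139 and 1351 in H3.3K27M. It ranked between 33rd and 44th of the genes listed for a library. The means were 994 ± 106, 1092 ± 110 and 1245 ± 150 FPKM. The H3.3WT and Cbfa2t2_KO libraries overlapped, and both H3.3K27M libraries were above both H3.3WT libraries. On the log2(FPKM + 1) scale Cbfa2t2_KO differed from H3.3WT by 0.14 ± 0.17 (SE) and H3.3K27M by 0.32 ± 0.23, but after quantile normalization these differences were -0.15 and -0.10, so no direction is given for this gene. Pou5f1 has pseudogene copies, and how the authors' counting shared reads with them is uncertain. The antisense gene Gm19553 overlaps it and was at 0.112 to 0.633 FPKM, and the strand of the libraries is not stated.

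Sox2 (ENSMUSG00000074637, chr3:34650405-34652461, 1 exon), the partner of OCT4, was at 30.9 and 34.4 FPKM in H3.3WT, 12.3 and 9.55 in Cbfa2t2_KO and 28.1 and 32.2 in H3.3K27M. Both Cbfa2t2_KO libraries lay below the other 4, and H3.3WT and H3.3K27M overlapped. The mean of 10.9 ± 1.9 FPKM in Cbfa2t2_KO was 2.99-fold below the 32.7 ± 2.5 of H3.3WT and 2.76-fold below the 30.2 ± 2.9 of H3.3K27M. The log2 differences were -1.50 ± 0.17 for Cbfa2t2_KO against H3.3WT, -0.11 ± 0.17 for H3.3K27M against H3.3WT (0.04 with median-of-ratios scaling) and 1.39 ± 0.17 for H3.3K27M against Cbfa2t2_KO. Sox2 lies within Sox2ot, a noncoding gene on the same strand that is in neither table.

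Nanog (ENSMUSG00000012396, chr6:122707489-122714633, 5 exons), the third core factor, was far lower than Pou5f1. It was at 6.89 and 5.27 FPKM in H3.3WT, 3.06 and 2.85 in Cbfa2t2_KO and 8.61 and 9.86 in H3.3K27M. The 3 groups did not overlap, with Cbfa2t2_KO lowest and H3.3K27M highest. The means were 6.08 ± 1.2, 2.96 ± 0.15 and 9.23 ± 0.88 FPKM. Cbfa2t2_KO was 2.06-fold below H3.3WT and H3.3K27M 1.52-fold above it, with log2 differences of -0.83 ± 0.19 and 0.54 ± 0.20. H3.3K27M was 3.12-fold above Cbfa2t2_KO (1.37 ± 0.19). The ratio of the mean levels of Pou5f1 and Nanog was 164 in H3.3WT, against 369 in Cbfa2t2_KO and 135 in H3.3K27M.

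**Figure D2:**
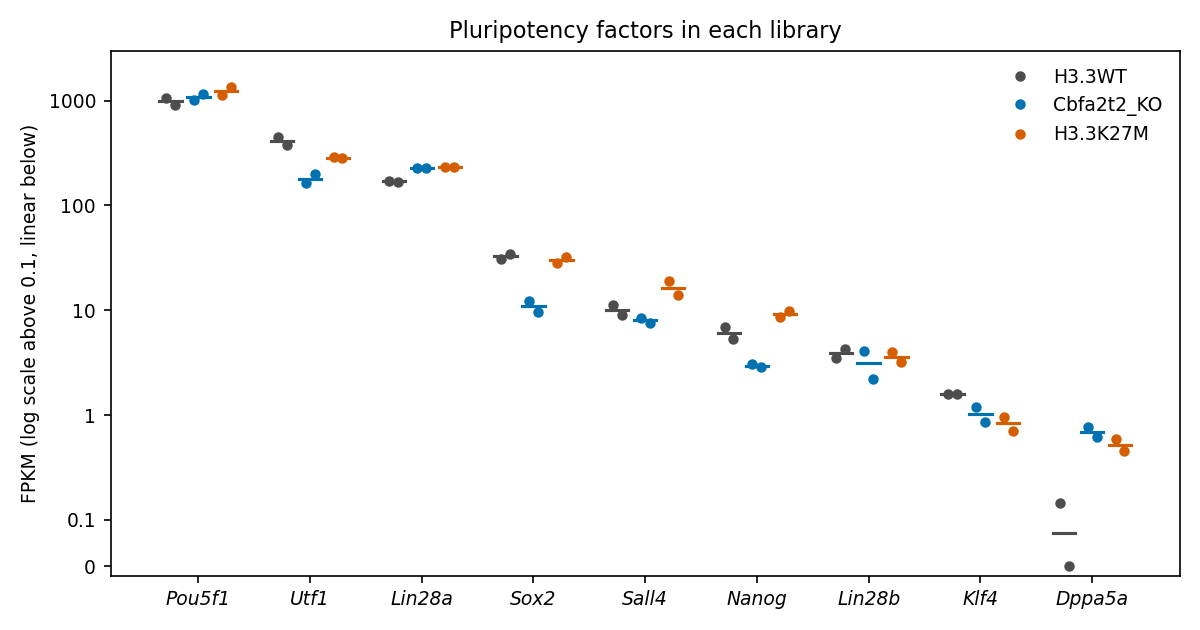
FPKM of the 9 tabled pluripotency factors, with 1 point per library, a bar at each group mean, and an axis that is logarithmic above 0.1 FPKM and linear below. Pou5f1 stands at 919 FPKM or above in all 6 libraries, Sox2 and Nanog are lowest in Cbfa2t2_KO, and Dppa5a is at 0.767 FPKM or below in all 6.

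Utf1 (ENSMUSG00000047751, chr7:139943789-139945112, 2 exons) encodes a chromatin-associated protein of embryonic stem cells and early germ cells that OCT4 and SOX2 activate. It was at 449 and 377 FPKM in H3.3WT, 162 and 198 in Cbfa2t2_KO and 288 and 285 in H3.3K27M. The 3 groups did not overlap, with H3.3WT highest and H3.3K27M between the others. The means were 413 ± 51, 180 ± 25 and 287 ± 2.4 FPKM. H3.3WT was 2.29-fold above Cbfa2t2_KO and 1.44-fold above H3.3K27M, and the log2 differences from H3.3WT were -1.19 ± 0.16 and -0.52 ± 0.19. H3.3K27M was 1.59-fold above Cbfa2t2_KO (0.67 ± 0.17).

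Sall4 (ENSMUSG00000027547, chr2:168748332-168767943, 4 exons), a zinc-finger factor that binds with OCT4 and NANOG, was at 11.2 and 9.10 FPKM in H3.3WT, 8.42 and 7.64 in Cbfa2t2_KO and 18.9 and 13.9 in H3.3K27M. The 3 groups followed the order of Nanog without overlap, but the gap between H3.3WT and Cbfa2t2_KO was small. The means were 10.2 ± 1.5, 8.03 ± 0.56 and 16.4 ± 3.5 FPKM. The log2 difference was -0.30 ± 0.17 for Cbfa2t2_KO and 0.64 ± 0.21 for H3.3K27M, each against H3.3WT. H3.3K27M was 2.05-fold above Cbfa2t2_KO (0.94 ± 0.19). Gm14261, on the opposite strand of Sall4, is in neither table.

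Lin28a (ENSMUSG00000050966, chr4:134003330-134018841, 4 exons) was at 173 and 166 FPKM in H3.3WT, 228 and 227 in Cbfa2t2_KO and 234 and 234 in H3.3K27M. Both other groups were above H3.3WT in every library, and their own means differed by only 0.04 ± 0.14 on the log2 scale (-0.03 after quantile normalization). The means were 169 ± 5.2, 228 ± 0.77 and 234 ± 0.49 FPKM, 1.34-fold higher in Cbfa2t2_KO and 1.38-fold higher in H3.3K27M than in H3.3WT. The log2 differences from H3.3WT were 0.42 ± 0.13 and 0.46 ± 0.17. Gm13061 overlaps Lin28a on the opposite strand, at 1.56 and 1.88 FPKM in H3.3WT, 0.195 and 0.408 in Cbfa2t2_KO and 0.165 and 0.198 in H3.3K27M, so it was lower where Lin28a was higher. Without the strand, reads of the overlapping stretch cannot be told apart.

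Its paralog Lin28b (ENSMUSG00000063804, chr10:45376620-45486395, 5 exons) was at 3.50 and 4.23 FPKM in H3.3WT, 4.08 and 2.22 in Cbfa2t2_KO and 3.95 and 3.19 in H3.3K27M. All 3 groups overlapped. The means were 3.87 ± 0.52, 3.15 ± 1.3 and 3.57 ± 0.54 FPKM. The log2 difference of Cbfa2t2_KO from H3.3WT, -0.26 ± 0.24, rested on the second Cbfa2t2_KO library and was 0.07 without it. Lin28a was above Lin28b by 43.8-fold in H3.3WT, against 72.3-fold in Cbfa2t2_KO and 65.5-fold in H3.3K27M, so Lin28a was the main LIN28 transcript in all 3 groups.

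Klf4 (ENSMUSG00000003032, chr4:55527143-55532466, 5 exons), a factor of naive pluripotency and of reprogramming, was at 1.59 and 1.60 FPKM in H3.3WT, 1.19 and 0.866 in Cbfa2t2_KO and 0.960 and 0.703 in H3.3K27M. Both H3.3WT libraries were above the other 4, and Cbfa2t2_KO and H3.3K27M overlapped. The log2 differences from H3.3WT were -0.36 ± 0.17 and -0.51 ± 0.17, at levels close to the 1 FPKM added before the log. Dppa5a (ENSMUSG00000060461, chr9:78367052-78368177, 3 exons), an RNA-binding protein of embryonic stem cells, was at 0.144 FPKM and listed at 0 in H3.3WT, 0.767 and 0.622 in Cbfa2t2_KO and 0.585 and 0.458 in H3.3K27M. It stayed under the minimum mean of 1 FPKM and was tested only in the alternative with no filter. There 5 pluripotency factors passed in Cbfa2t2_KO against H3.3WT, against 4 with the filter. Zfp42 (ENSMUSG00000051176, chr8:43295063-43306980, 5 exons), known as REX1 and used as a marker of naive embryonic stem cells, was in neither table. The tables list only genes that reached 0.500 FPKM in some library.

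**Figure D3:**
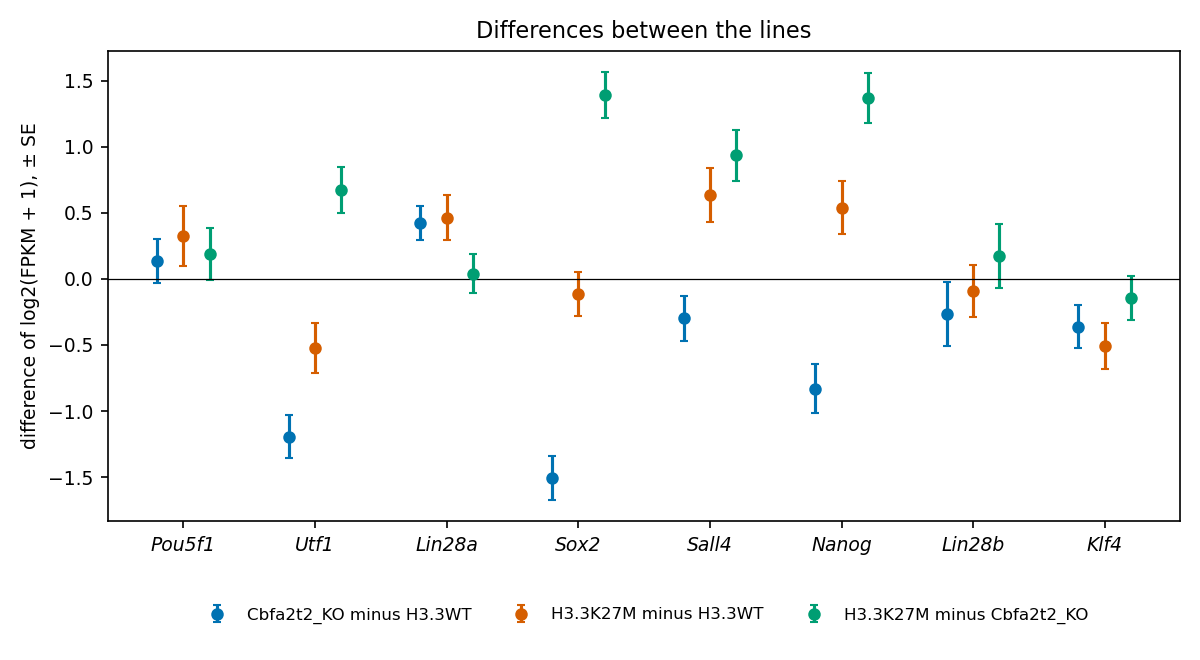
Differences of log2(FPKM + 1) between groups for the 8 pluripotency factors tested, as points with bars of 1 standard error. Sox2 and Utf1 have the most negative differences of Cbfa2t2_KO from H3.3WT (-1.50 and -1.19), and Nanog and Sall4 have the most positive differences of H3.3K27M from H3.3WT (0.54 and 0.64).

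The order of the levels in H3.3WT, from the highest, was Pou5f1, Utf1, Lin28a, Sox2, Sall4, Nanog, Lin28b, Klf4 and Dppa5a, and no neighbours in that order overlapped in their 2 libraries. In Cbfa2t2_KO Lin28a (228 FPKM) stood above Utf1 (180), the reverse of the other groups, and Lin28b and Nanog overlapped. In H3.3K27M the order was that of H3.3WT. The 3 highest genes therefore stayed at 162 FPKM or above in every library, while Lin28b, Klf4 and Dppa5a stayed at 4.23 FPKM or below.

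A linear model (limma) was fitted to log2(FPKM + 1) of every gene whose mean was 1 FPKM or more, and an adjusted p under 0.05 was the threshold. In Cbfa2t2_KO against H3.3WT 4 of the 8 tested pluripotency factors passed it (Utf1, Nanog and Sox2 lower, Lin28a higher), where 34.6% of all 11626 tested genes passed (13.1% higher, 21.5% lower). Without the first H3.3WT library or the second Cbfa2t2_KO library 2 passed. The Lin28a call was lost without any 1 of the 4 libraries, with quantile normalization, without the trend and in a fit of all 6 libraries, and the Nanog call without the first H3.3WT or the second Cbfa2t2_KO library. In H3.3K27M against H3.3WT 0 of the 8 passed in limma (5 at an unadjusted p under 0.05), where 26.2% of 11623 genes passed (8.42% higher, 17.8% lower), and with other settings up to 4 did. In H3.3K27M against Cbfa2t2_KO 4 were higher (Utf1, Nanog, Sall4 and Sox2), where 7.8% of 11601 genes passed (3.12% higher, 4.68% lower). Without the second Cbfa2t2_KO library 0 of them passed, and without the first Cbfa2t2_KO or the first H3.3K27M library 2 did. The Utf1 call was lost without any 1 of the 6 libraries, with 0.1 FPKM added, with no filter, with median-of-ratios scaling and without the trend. Groups did not overlap for 6, 6 and 5 of the 8 genes in these 3 comparisons, and for 70.4%, 66.3% and 58.2% of all tested genes. Because the genes were chosen with these values known, nothing is read from these counts.

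Of all genes that passed, 37.9% were higher in Cbfa2t2_KO than in H3.3WT and 32.1% were higher in H3.3K27M, and with median-of-ratios scaling these shares were 50.6% and 49.3%. The median log2 difference of all tested genes was -0.11 in Cbfa2t2_KO and -0.12 in H3.3K27M against H3.3WT, so a gene at about -0.1 had not moved relative to the typical gene.

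Other genes of the network were taken from lists of 132 genes, of which 109 were in the tables. In Cbfa2t2_KO against H3.3WT 8 of the 89 tested rose, 27 fell and 54 did not pass the test, with a median of -0.30 against -0.11 for all genes. The share past the threshold was 39.3%, near the 34.6% of all tested genes. By direction, 13.1% of all tested genes rose and 21.5% fell. In H3.3K27M against H3.3WT 10 of 94 rose, 13 fell and 71 did not pass, with a median of -0.21 against -0.12. Here the share was 24.5%, near the 26.2% of all tested genes, and by direction 8.42% of all tested genes rose and 17.8% fell. In H3.3K27M against Cbfa2t2_KO 10 of 92 rose and 2 fell, a share of 13.0% against 7.8% of all tested genes. These numbers depended on single libraries. In Cbfa2t2_KO 15 fell without the first H3.3WT library and 13 without the second Cbfa2t2_KO library. In H3.3K27M 6 rose without the first and 5 without the second H3.3WT library, and 4 fell without the first or without the second H3.3WT library, 7 without the second H3.3K27M library and 20 without the first. With median-of-ratios scaling 7 fell there.

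Among transcriptional regulators of the network, 2 of 23 tested genes rose and 11 fell in Cbfa2t2_KO (median -0.49), and 3 of 24 rose and 3 fell in H3.3K27M (median -0.20). In Cbfa2t2_KO 7 fell without the first and 5 without the second library of that group, and in H3.3K27M 0 fell in limma without the first H3.3WT library and 1 without the second. Klf2, a KLF factor of naive pluripotency, was at 3.42 ± 0.46 FPKM in H3.3WT and rose to 10.2 ± 0.94 in Cbfa2t2_KO and 15.5 ± 1.6 in H3.3K27M (limma, adjusted p = 0.0016 and 0.0012). Nr0b1, an orphan nuclear receptor that binds OCT4, rose with it, from 3.04 ± 0.018 to 9.36 ± 0.39 and 12.0 ± 0.79 FPKM (limma, adjusted p = 0.0013 in both). Klf4 had differences of the opposite sign in both lines. Myc, a driver of growth and self-renewal, fell in Cbfa2t2_KO from 5.45 ± 1.7 to 1.38 ± 0.50 FPKM (limma, adjusted p = 0.0040), and was at 5.38 ± 0.35 in H3.3K27M. The direct difference of H3.3K27M from Cbfa2t2_KO was 1.44 ± 0.23 on the log2 scale (limma, adjusted p = 0.0147), and its call was lost without the second Cbfa2t2_KO library (0.129) or the second H3.3K27M library (0.0544). Zfp281, a zinc-finger factor that binds NANOG, was at 7.99 ± 0.19 FPKM in H3.3WT and fell to 2.80 ± 0.91 in Cbfa2t2_KO (limma, adjusted p = 0.0035), with 6.55 ± 1.1 in H3.3K27M.

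Genes that mark or signal in pluripotent cells split by direction. Of 19 tested in Cbfa2t2_KO 4 rose and 4 fell (median -0.12), and of 22 in H3.3K27M 5 rose and 3 fell (median 0.16). That was 42.1% and 36.4%, against 34.6% and 26.2% of all tested genes. In H3.3K27M 3 rose without the first H3.3WT or the second H3.3K27M library and 2 without the second H3.3WT library, and 1 fell without either H3.3WT library in turn, without the first H3.3K27M library or with median-of-ratios scaling. Lefty1, an inhibitor of NODAL signalling, fell from 121 and 102 FPKM in H3.3WT to 16.2 and 17.0 in Cbfa2t2_KO, 6.73-fold (limma, adjusted p = 0.00012). It was at 135 and 124 FPKM in H3.3K27M, which put that line 7.78-fold above Cbfa2t2_KO (limma, adjusted p = 0.00014). Tdgf1, the NODAL co-receptor CRIPTO, had another pattern. It was at 19.3 ± 2.4 FPKM in H3.3WT, a mean of 22.5 ± 2.5 in Cbfa2t2_KO (limma, adjusted p = 0.327) and rose to 78.6 ± 0.23 in H3.3K27M, 4.07-fold (limma, adjusted p = 0.0010). The ligand gene Nodal, added here after its values were seen, was at 82.4 ± 21, 27.2 ± 2.9 and 49.4 ± 2.1 FPKM. Tdh, the threonine dehydrogenase of mouse embryonic stem cells, rose from 10.1 ± 1.9 FPKM to 32.2 ± 1.1 in Cbfa2t2_KO and 39.8 ± 6.2 in H3.3K27M. L1td1, an RNA-binding protein that interacts with LIN28, fell from 120 ± 13 FPKM to 33.2 ± 8.9 and 63.1 ± 4.4 (limma, adjusted p = 0.00090 and 0.0072). Its call in H3.3K27M was lost without the second H3.3WT library (0.0741).

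**Figure D4:**
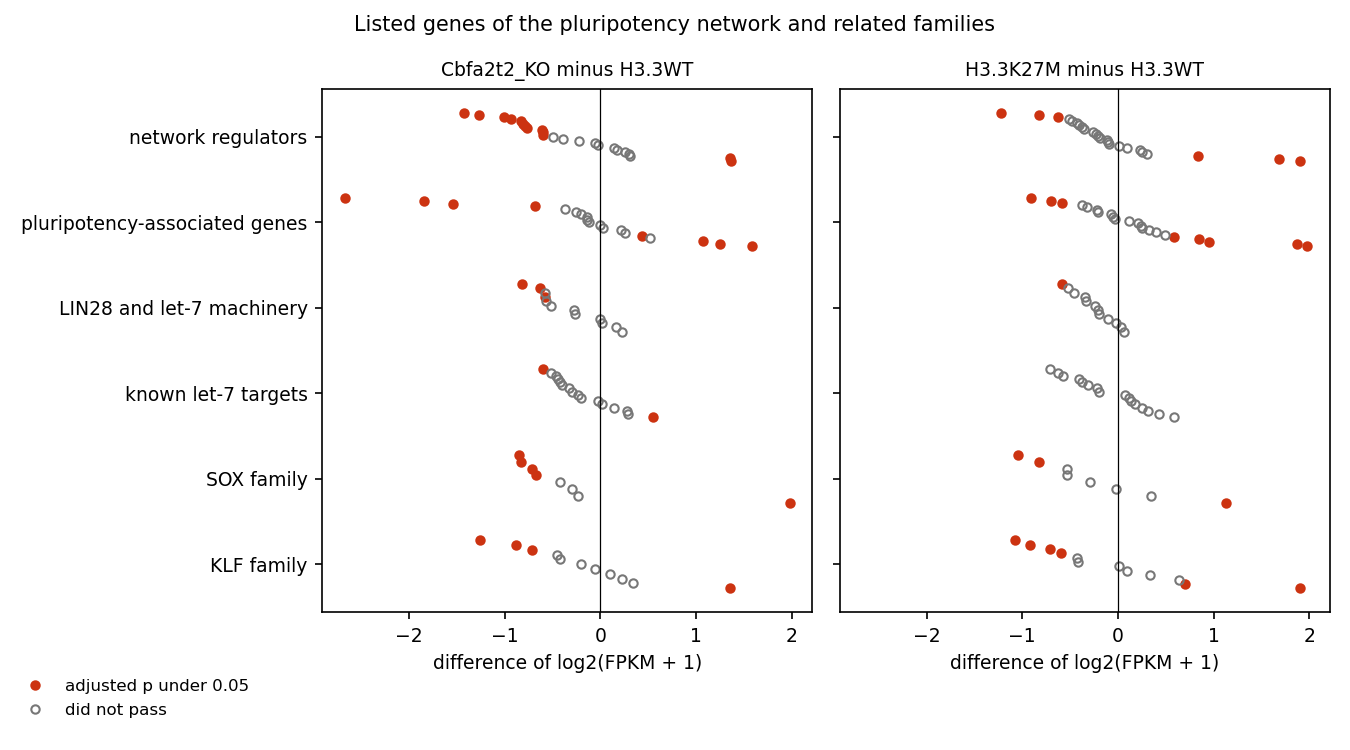
Differences of log2(FPKM + 1) of the listed genes in Cbfa2t2_KO (left) and H3.3K27M (right) against H3.3WT, 1 point per tested gene in 6 of the lists. Of all tested genes, 34.6% (left) and 26.2% (right) passed the threshold. Filled points have an adjusted p under 0.05 in limma, and the 11 network regulators that fell in Cbfa2t2_KO stand left of 0 beside 2 that rose (7 and 5 fell without the first and the second Cbfa2t2_KO library).

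In the family of Sox2, 1 of 8 tested SOX genes rose and 4 fell in Cbfa2t2_KO (median -0.55), and 1 rose and 2 fell in H3.3K27M (median -0.41). That was 62.5% and 37.5%, against 34.6% and 26.2% of all tested genes. In Cbfa2t2_KO 2 fell without the first H3.3WT or the first Cbfa2t2_KO library and 1 without the second Cbfa2t2_KO library, and in H3.3K27M 1 fell without either H3.3WT library in turn and 4 with no filter or in a fit of all 6 libraries. Sox3, a close relative of Sox2 and like it a factor of neural progenitors, was at 92.9 and 88.9 FPKM in H3.3WT and fell to 47.4 and 54.2 in Cbfa2t2_KO and to 48.4 and 53.7 in H3.3K27M (limma, adjusted p = 0.0036 and 0.0089). Sox3 was thus lower in both lines, whereas the Sox2 libraries of H3.3K27M and H3.3WT overlapped. The level of Sox3 was 2.78-fold that of Sox2 in H3.3WT, against 4.65-fold in Cbfa2t2_KO and 1.69-fold in H3.3K27M. The Sox3 call in H3.3K27M was lost without the first (limma, adjusted p = 0.0721) or the second H3.3WT library (0.0623). Sox15, which can bind DNA with OCT4 in embryonic stem cells, rose from 1.05 ± 0.24 FPKM to 7.08 ± 0.85 and 3.48 ± 0.29 (limma, adjusted p = 0.00064 and 0.0050). With 0.1 FPKM added in place of 1, its log2 difference in Cbfa2t2_KO was 2.65 rather than 1.98. Sox9, a factor of glial and neural crest cells, fell from 2.71 ± 0.058 FPKM to 1.08 ± 0.36 and 0.807 ± 0.28 (limma, adjusted p = 0.0108 and 0.0064). The Sox9 call in Cbfa2t2_KO was lost without the second library of that group (0.0663), and with 0.1 FPKM added its log2 difference in H3.3K27M was -1.67 rather than -1.05. Sox13 was at 3.48 ± 1.3, 1.68 ± 0.37 and 4.60 ± 0.52 FPKM and passed in Cbfa2t2_KO at an adjusted p of 0.0445 (limma), which became 0.22 without the first H3.3WT library, 0.0706 without the first and 0.206 without the second Cbfa2t2_KO library.

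In the family of Klf4, 1 of 11 tested KLF genes rose and 3 fell in Cbfa2t2_KO (median -0.21), and 2 of 12 rose and 4 fell in H3.3K27M (median -0.20). That was 36.4% and 50.0%, against 34.6% and 26.2% of all tested genes. In Cbfa2t2_KO 1 fell without the second library of that group. In H3.3K27M 1 rose without any 1 of the 4 libraries, 1 fell without the first H3.3WT or the second H3.3K27M library, 0 without the second H3.3WT library, and 2 with median-of-ratios scaling. Klf10, induced by TGF-beta, fell from 5.70 ± 0.91 FPKM to 1.79 ± 0.21 and 2.15 ± 0.081 (limma, adjusted p = 0.0024 and 0.0064), and its call in H3.3K27M was lost without the second H3.3WT library (0.0561). Klf13 was at 8.94 ± 0.037, 5.05 ± 0.15 and 4.31 ± 1.1 FPKM (limma, adjusted p = 0.0125 and 0.0149). Its call was lost without the second H3.3WT library (0.0526 in Cbfa2t2_KO, 0.0835 in H3.3K27M), the first H3.3WT library (0.0799 in H3.3K27M), the second Cbfa2t2_KO library (0.0635) or the second H3.3K27M library (0.0648). Klf16 was at 21.1 ± 3.2, 15.1 ± 1.2 and 12.4 ± 0.84 FPKM and passed in H3.3K27M (limma, adjusted p = 0.0229). That call was lost with median-of-ratios scaling (0.0568) and without the first (0.166) or second (0.0623) H3.3WT library or the second H3.3K27M library (0.0892).

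Of the 3 relatives of Sall4 tested, 2 fell in Cbfa2t2_KO and 1 in H3.3K27M, where 21.5% and 17.8% of all tested genes fell. Sall3 was at 7.93 ± 1.5 FPKM in H3.3WT, against 4.71 ± 0.39 in Cbfa2t2_KO and 2.42 ± 0.80 in H3.3K27M (limma, adjusted p = 0.0334 and 0.0050), so it was lowest where Sall4 was highest. Sall1 was at 38.9 ± 0.48, 26.8 ± 3.7 and 32.3 ± 8.8 FPKM and passed in Cbfa2t2_KO (limma, adjusted p = 0.0278). With median-of-ratios scaling the Cbfa2t2_KO calls of Sall3 (0.0507) and Sall1 (0.0752) were lost. Leaving out the first H3.3WT or the second Cbfa2t2_KO library also ended both (0.162 and 0.144 for Sall3, 0.0782 and 0.157 for Sall1), as did the second H3.3WT library for Sall1 (0.0812) and the first Cbfa2t2_KO library for Sall3 (0.0723). Of the POU relatives of Pou5f1, 3 of 13 were tested and 0 passed in limma in any comparison (2 at an unadjusted p under 0.05 in Cbfa2t2_KO and 1 in H3.3K27M against H3.3WT). In H3.3K27M against H3.3WT 1 was called lower without the first H3.3K27M library or in a fit of all 6 libraries.

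In the LIN28 and let-7 pathway, of 12 processing factors tested, 0 rose and 3 fell in Cbfa2t2_KO in limma (6 at an unadjusted p under 0.05, median -0.40), and 0 rose and 1 fell in H3.3K27M (3 unadjusted, median -0.22), or 3 without the first H3.3K27M library. The 3 were Dicer1, the nuclease that cuts let-7 and other precursors, Drosha, which cuts the primary transcripts, and Tarbp2, the partner of DICER1. Dicer1 was at 9.81 ± 1.4, 5.20 ± 1.5 and 6.63 ± 1.9 FPKM (limma, adjusted p = 0.0213 in Cbfa2t2_KO). Drosha was at 33.3 ± 2.4, 22.0 ± 2.0 and 24.1 ± 5.3 FPKM (limma, adjusted p = 0.0189 in Cbfa2t2_KO). Tarbp2 was at 13.1 ± 0.72, 8.09 ± 1.2 and 8.34 ± 0.14 FPKM (limma, adjusted p = 0.0229 and 0.0373). All 4 calls were lost without 1 library or another. In Cbfa2t2_KO, Dicer1 was lost without the second H3.3WT (limma, adjusted p = 0.106) or Cbfa2t2_KO library (0.121). Drosha was lost without the first H3.3WT (0.0747) or the second Cbfa2t2_KO library (0.113). Tarbp2 was lost without the first (0.0826) or second (0.0612) H3.3WT or the first Cbfa2t2_KO library (0.107). In H3.3K27M, leaving out any 1 library ended the Tarbp2 call (0.0654 to 0.193). Median-of-ratios scaling also ended the calls of Drosha (0.0523) and of Tarbp2 in H3.3K27M (0.0905).

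Among 16 known let-7 targets, 1 rose and 1 fell in Cbfa2t2_KO (median -0.27), 12.5% against 34.6% of all tested genes. In H3.3K27M 0 passed in limma (3 at an unadjusted p under 0.05, median -0.06), where 26.2% of all tested genes passed. Without the first H3.3K27M library 4 fell there, in a fit of all 6 libraries 1 fell, and with median-of-ratios scaling or quantile normalization 1 rose. Hmga1, a chromatin protein, was at 152 ± 26, 221 ± 17 and 188 ± 7.3 FPKM (limma, adjusted p = 0.0328 in Cbfa2t2_KO). Ccnd1, cyclin D1, was at 7.86 ± 1.7, 4.80 ± 0.35 and 4.70 ± 0.45 FPKM (limma, adjusted p = 0.0445 in Cbfa2t2_KO and 0.0565 in H3.3K27M). The Hmga1 call was lost without the second H3.3WT (0.207) or either Cbfa2t2_KO library (0.0669 and 0.157). The Ccnd1 call was lost with median-of-ratios scaling (0.071) and without the first H3.3WT (0.217) or either Cbfa2t2_KO library (0.0914 and 0.173). Quantile normalization ended the calls in Cbfa2t2_KO of Ccnd1 (0.104), Tarbp2 (0.0612), Sox13 (0.0648), Sall1 (0.0503) and Sall3 (0.0754), and in H3.3K27M those of Tarbp2 (0.11) and Klf16 (0.0697). A fit of all 6 libraries ended those of Sall1 (0.0716) and Sall3 (0.0543) in Cbfa2t2_KO, and with no filter Sox13 was at 0.051.

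For the 3 pluripotency factors whose group means spanned the widest range on log2(FPKM + 1), the genes with the most similar pattern were ranked by Pearson r over the 6 libraries, among 6330 other genes at a mean of 5 FPKM or more. With 6 libraries in 3 groups such values are a description. An r of 0.99 or more was reached by 3 genes for Sox2, 0 for Nanog and 3 for Utf1. Sox2, with a range of 1.51, was most like Kansl2 (r = 0.9962), Fam118a (0.9909), Pcgf6 (0.9903), Mrps31 (0.9897) and Mtx2 (0.9882). Nanog, with a range of 1.37, was most like Hnrnpc (0.9885), Exosc7 (0.9866), Ubr7 (0.9832), Ppia (0.9792) and Ywhaz (0.9787). Utf1, with a range of 1.20, had among its most similar genes Nodal (0.9928), Foxh1 (0.9923), Wdr70 (0.9921) and En1 (0.9892). An r does not measure the size of a change, as the first gene of each ranking shows. Kansl2 ran from 30.3 to 43.1 FPKM over the libraries, where Sox2 ran from 9.55 to 34.4. Hnrnpc ran from 41.1 to 60.0, where Nanog ran from 2.85 to 9.86. Nodal ran from 25.1 to 97.5, where Utf1 ran from 162 to 449. Foxh1, a DNA-binding cofactor of NODAL signalling, was at 171 and 146 FPKM in H3.3WT, 63.2 and 72.2 in Cbfa2t2_KO and 99.2 and 104 in H3.3K27M, the same order of groups as Utf1.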

How the data were processed

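RNA was extracted with Trizol and poly(A) mRNA was primed at random, per the labels' protocols. The authors deposited FPKM in 2 tables, which pair Cbfa2t2_KO or H3.3K27M with the same H3.3WT libraries. Per the submitters' processing notes, Trim Galore, HISAT2, StringTie and DESeq were used with the build GRCm38, and versions are not given in the sources used here. The tables hold 14431 and 14318 genes, with 14082 in both. Summed FPKM ran from 363586 to 419389. At most 0.283 to 0.313 of 300 low values per library were whole multiples of a step (tolerance 0.1), so no depth could be recovered and no counting interval is given. The names of the H3.3K27M columns hold the letter M and a number, and the columns were assigned to that group on the letter.

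Genes were tested with limma 3.58.1 in R 4.3.3 (eBayes with trend) on log2(FPKM + 1), which understates changes of low genes, after a filter at a mean of 1 FPKM, with Benjamini-Hochberg adjustment over all tested genes and a threshold of 0.05. Each line was fitted with H3.3WT in 4 libraries, and H3.3K27M against Cbfa2t2_KO in all 6. The smallest p of an exact two-sided permutation test of 2 against 2 libraries is 0.333. The procedure was tested on simulated data in which 200 genes were changed 2-fold. It recovered 50% of them in Cbfa2t2_KO against H3.3WT, with 8 false calls. In H3.3K27M against H3.3WT it recovered 36.5%, with 1 false call, and in H3.3K27M against Cbfa2t2_KO 55%, with 4. A gene that did not pass may therefore still have changed. The simulation changed 200 of 11626, 11623 and 11601 genes, whereas 34.6%, 26.2% and 7.8% of genes passed in the data. Its noise was the same for genes of the same mean. The recovered shares and the false calls therefore need not carry over to the data. Alternatives were 0.1 FPKM added, no filter, a mean of 5 FPKM, quantile normalization, median-of-ratios scaling, no trend in eBayes, a fit of all 6 libraries and leaving out each library. Up to 4 genes were named per list: those past the threshold in either comparison with H3.3WT with the largest log2 difference, no overlap of groups and 2 FPKM or more in the higher group. The pluripotency factors and the lists were chosen with earlier results of these data known. Coordinates, exons and overlaps come from GENCODE vM21, and promoter and microRNA sequences from RefSeq on GRCm38.p6. Some listed or ranked genes are not reported here by name. Figures were drawn with matplotlib 3.10.9.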

Additional observations from a re-analysis of the deposited data

Results flagged for a closer look

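For Nanog and Sall4 the difference from H3.3WT had opposite signs in the 2 lines, in every library. On log2(FPKM + 1), Nanog differed by -0.83 in Cbfa2t2_KO and by 0.54 in H3.3K27M, and Sall4 by -0.30 and 0.64. With the main settings only the Nanog difference in Cbfa2t2_KO passed the threshold. The median difference of all tested genes in Cbfa2t2_KO was -0.11. Each Cbfa2t2_KO library was below both H3.3WT libraries, and each H3.3K27M library was above both. That the 2 differences are unlike was not tested, because the genes were chosen with these values known, and both differences share the H3.3WT libraries. The signs were the same with median-of-ratios scaling (Nanog -0.73 and 0.67, Sall4 -0.18 and 0.78).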

How the results depend on the processing

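Depth is unknown, and 2 libraries in a group limit every comparison. No paired analysis was possible because the labels give no replicate numbers. With 1 library left out of a group, the lone library is assumed to vary like the others. Genes past the threshold numbered 4028 in Cbfa2t2_KO against H3.3WT (1915 to 3038 with 1 library left out, 2236 without the second H3.3WT and 1915 without the second Cbfa2t2_KO library), 3049 in H3.3K27M against H3.3WT (1007 to 2790, with 1206 and 1007 without the first and second H3.3WT and 1589 without the second H3.3K27M library) and 905 in H3.3K27M against Cbfa2t2_KO (29 to 786, with 162 and 29 without the first and second Cbfa2t2_KO, 161 without the second H3.3K27M, and 564 and 582 without the first and second H3.3WT library). Of the pluripotency factors, 4 passed in Cbfa2t2_KO against H3.3WT (2 to 3 with 1 library left out) and 4 in H3.3K27M against Cbfa2t2_KO (0 to 3). In H3.3K27M against H3.3WT 0 passed in limma, and 0 to 0 with 1 library left out, but 1 with a mean of 5 FPKM (Sall4), 2 with median-of-ratios scaling (Nanog and Sall4), 3 with quantile normalization (Utf1, Nanog and Sall4) and 4 in a fit of all 6 libraries (Utf1, Lin28a, Sall4 and Klf4). Of the listed genes, 8 rose in Cbfa2t2_KO against H3.3WT (6 to 9 with 1 library left out) and 27 fell (13 to 22). In H3.3K27M against H3.3WT 10 rose (5 to 7, and 5 with a mean of 5 FPKM) and 13 fell (4 to 20, with 7 under median-of-ratios scaling and 8 under quantile normalization). In H3.3K27M against Cbfa2t2_KO 10 rose (2 to 10) and 2 fell (0 to 4, and 1 with a mean of 5 FPKM). Over 265 alternatives to the 24 differences of the pluripotency factors, 227 kept direction and side of the threshold, 24 lost the call, 10 gained one and 4 changed sign or moved without a call. Over 734 alternatives to 66 differences of the named listed genes these numbers were 655, 71, 4 and 4. None of the called differences reversed under the alternatives run. The cause of these changes was not tested, beyond the smaller number of libraries or genes.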
